A study of Gallus gallus with 2 samples.

Results

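Gene models that the authors assembled from their own reads, and that lie across an annotated chicken gene on the opposite strand only, are described here. A model was included when its interval, from first to last base, shared at least 1 base with an Ensembl gene on the same chromosome and the other strand and none with an Ensembl gene on its own strand, and chromosomes W and MT were left out. In all, 391 of 9548 assembled models (4.10%) met this rule, in a table of 26656 rows. The other assembled models lay on the strand of an annotated gene alone (5381) or of genes on both strands (1060), had a strand and touched no gene (1748), had no strand (932 away from genes and 27 over genes), or lay on the chromosomes left out (9). The rule used position and strand and no read count.

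Antisense transcripts are RNAs read from the strand opposite to a gene. They come about in several ways: head to head, where the gene and its neighbour start close together and are read away from each other, tail to tail, where both run past their ends into one another, or wholly within the body of a gene. Some are known in mammals to act on the gene they face, many are simply the overhanging ends of a neighbouring gene, and their study needs libraries that keep the strand of the RNA.

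The cells were labelled as chicken spermatogenic stem cells (SSCs), a name for the germ line stem cells of the testis. They were isolated from testes of embryos of eggs incubated for 18.5 days and cultured in medium with serum. The shLSD1 library came from SSCs that received an interference vector against LSD1, an enzyme that removes methyl groups from lysine 4 of histone H3. The Blank library came from SSCs with no treatment, so that a control vector was not part of the comparison. Each group was 1 library, with 8245826 reads counted in shLSD1 and 8731455 reads in Blank, and every difference below is one between these libraries and not between treatments. Intervals are exact 95% intervals and cover counting error only. LSD1 itself (KDM1A, chromosome 23, 1686690 to 1716555) had 0 reads in shLSD1 and 0 in Blank, as had an assembled model over the same stretch, so the interference could not be checked from the counts. Of 12 germ cell markers, the summed count on the annotated rows was 54 reads in shLSD1 and 87 in Blank: DDX4 had 11 reads in shLSD1 and 23 in Blank, DAZL 5 in shLSD1 and 8 in Blank, and NANOG 0 in both. Higher in shLSD1, at few reads, were PIWIL1 (7 in shLSD1, 2 in Blank), LIN28A (3 in shLSD1, 2 in Blank) and MAEL (2 in shLSD1, 1 in Blank). A same-strand assembled model was found over 1 of the 11 germ cell markers found by name, SYCP3, which had 0 reads in shLSD1 and 3 in Blank while the model had 250 in shLSD1 and 309 in Blank. The annotated rows of 7 Sertoli cell markers summed to 2210 reads in shLSD1 and 1879 in Blank, of which CLDN11 held 1544 in shLSD1 and 1255 in Blank. WT1 and AMH were at 0 there in both libraries. Their same-strand models had 613 reads in shLSD1 and 568 in Blank for WT1, and 153 in shLSD1 and 191 in Blank for AMH. Peritubular cell markers (4 matched) summed to more, 5436 reads in shLSD1 and 6702 in Blank. Leydig cell markers (4 matched) summed to 517 in shLSD1 and 696 in Blank. Endothelial markers held 79 in shLSD1 and 109 in Blank, and blood and immune markers 258 in shLSD1 and 287 in Blank. On annotated rows the germ cell markers thus summed to fewer reads than each other set in both libraries. The name SSC is therefore used here as the label only. In such bulk samples, fewer cells of a type and less RNA per cell cannot be told apart.

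The library kit named in the labels (Illumina TruSeq RNA Sample Prep Kit) does not mark the strand of the RNA, and the sources used here do not state that strand entered the counting. Without strand, reads of a gene and of the model opposite to it cannot be told apart within the stretch they share. The strand listed for a spliced model can come from its splice sites, whereas a model with 1 exon offers none. For the same reason the word antisense is used below for the listed strand, and not as a measured property of the RNA. Coordinates are those of the files, whose genome build is not given in the sources used here.

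The 391 models faced 361 different genes, since some genes faced more than 1 model. Most models (354) had 1 opposite gene and 37 had several, in which case the gene with the longest shared stretch was taken as the partner. The partner was protein-coding for 382 models, a miRNA for 5 and a pseudogene for 4. Chromosomes 1, 2 and 3 held 36, 24 and 23 of the models. These were 3.61%, 3.69% and 3.98% of all assembled models there. A further 49 models lay on unplaced scaffolds.

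The pairs fell into 4 arrangements. In 181 pairs the model lay inside the gene, 127 pairs were convergent (tail to tail), 65 were divergent (head to head) and in 18 the gene lay inside the model. The median model spanned 2045 bases and had a listed exon length of 723 bases, and it shared a median of 624 bases with its partner, from 1 to 48979. Shared stretches, here and below, run between first and last bases and include introns. The overlap of exons was not computed. Models inside genes were short, with a median exon length of 340 bases, against 763 in divergent and 1445 in convergent models. Unspliced models, whose exon length equals their span, made up 3 of 65 divergent, 36 of 127 convergent and 23 of 181 inside models, and none of the 18 that enclosed a gene. The deposited annotation gave a protein domain to 84 models (21.5%), against 29.9% of models away from any gene and 90.1% of those on the strand of a gene.

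A set of 59 models (15.1%) touched their gene by only 1 to 4 bases: 36 shared 4 bases, 10 shared 3, 8 shared 2 and 5 shared 1. No model shared 5 to 13 bases, and the next value was 14. Among 929 pairs of annotated genes on opposite strands, 8 (0.861%) shared 1 to 4 bases, and 1 (0.108%) shared exactly 4. Of the 59, 53 were convergent and 6 divergent, and 36 (61.0%) were unspliced, against 26 of the 332 models that shared more (7.83%). These models therefore abutted the end of the annotated gene rather than lying across it, which most often was its 3′ end. In the 21 such pairs with at least 20 reads on both sides, the FPKM (fragments per kilobase of exon, scaled to the library) of the model was a median of 0.904 times that of the gene in shLSD1 and 0.929 times in Blank. Single pairs ran from 0.141 to 14.2 in shLSD1 and from 0.132 to 21.8 in Blank. In the 64 pairs that shared more, the medians were also near 1, at 1.22 in shLSD1 and 1.05 in Blank. Whether a model that only abuts its gene is the unannotated end of the same transcript, on the strand of the gene, was not tested.

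**Figure D1:**
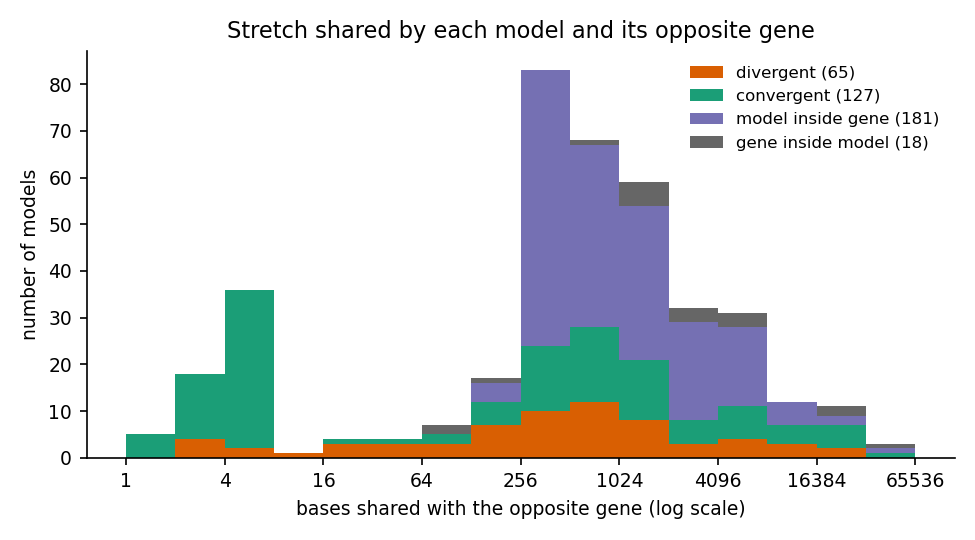
Number of models (vertical axis) by the number of bases shared with the opposite gene (horizontal axis, log scale), stacked by arrangement: divergent (65), convergent (127), model inside gene (181) and gene inside model (18). The 59 models that share 1 to 4 bases stand apart on the left and are mostly convergent, and the models inside genes lie to the right.

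Together the models held 61908 reads in shLSD1 (0.751% of the library) and 65774 in Blank (0.753%). In both libraries 194 of 391 (49.6%, Wilson interval 44.7 to 54.6%) had no read, 39 had 1 to 19 reads over the libraries together, and 158 had at least 20, the minimum used for ratios. A count of 0 allows up to 3 reads, or a CPM (reads scaled to library size) of 0.364 in shLSD1 and 0.344 in Blank. Among assembled models away from any gene, 303 of 1748 (17.3%, 15.6 to 19.2%) were at 0.

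The arrangements differed in how many models were at 0. Of models inside a gene, 128 of 181 (70.7%) had no read, against 48 of 127 convergent, 14 of 65 divergent (21.5%) and 4 of 18 enclosing models. Models crossed by another assembled model were at 0 in 151 of 273 cases (55.3%, 49.4 to 61.1%), and those with no other model over them in 43 of 118 (36.4%, 28.3 to 45.4%). Of the 194 models at 0, 65 faced a gene with at least 20 reads and 97 a gene that was itself at 0. The clearest examples came from genes with at least 10000 reads, a set chosen after the values were seen: 18 of the 23 models opposite such genes had no read. They included models inside vimentin, the intermediate filament protein of mesenchymal cells (41286 reads in shLSD1 and 43898 in Blank), TMSB4X, which encodes an actin-binding peptide (23796 in shLSD1 and 28995 in Blank), and TGM2, a protein cross-linking enzyme (20654 in shLSD1 and 24357 in Blank).

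Genes at 0 were common on the other side of the pairs too. Of 353 protein-coding genes facing a model, 146 (41.4%, 36.3 to 46.6%) had no read in either library. This was near the share over all annotated genes of any type, 6491 of 17108 (37.9%). All 146 genes facing a model and at 0 were among the 245 that also carried an assembled model on their own strand (59.6%, 53.3 to 65.5%). Among the 108 with no such model, 0 were at 0 reads, with an upper Wilson limit of 3.43%. The same contrast held in genes with no model on the opposite strand: 3731 of 5977 (62.4%, 61.2 to 63.6%) were at 0 where a same-strand model shared at least 1 base with them, and 1175 of 8066 (14.6%, 13.8 to 15.4%) where no model lay on either strand. Among all 581 genes crossed by an assembled model on the opposite strand alone, 51 (8.78%, 6.74 to 11.4%) were at 0. The share was 46 of 223 (20.6%, 15.8 to 26.4%) where the model covered at least 50% of the gene and 5 of 358 (1.40%, 0.598 to 3.23%) where it covered less.

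**Figure D2:**
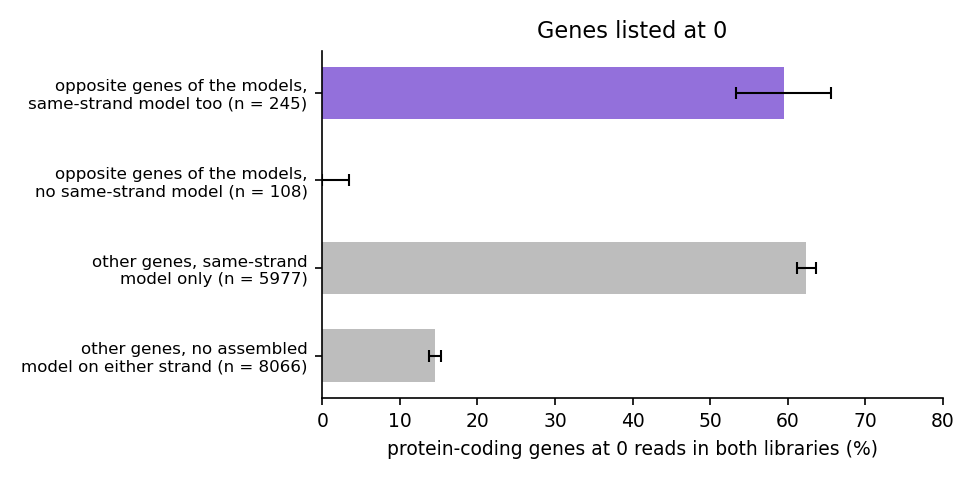
Share of protein-coding genes with 0 reads in both libraries (horizontal axis, percent, with Wilson 95% intervals), for genes that face a model (purple) and for other genes (grey), split by whether an assembled model lies on the gene's own strand. The bars with a same-strand model reach 59.6% and 62.4%, the bar for other genes without any model is at 14.6%, and no gene that faces a model and has no same-strand model was at 0.

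A gene listed at 0 often had reads on an assembled model of its own strand. Among the 158 models with at least 20 reads, 45 faced a gene at 0, and 44 of those genes had a same-strand assembled model, which held reads in 39 cases. GATA4, a transcription factor of gonadal somatic cells, had 0 reads in shLSD1 and 0 in Blank, while its same-strand model had 2248 in shLSD1 and 2475 in Blank and its divergent antisense model 246 in shLSD1 and 266 in Blank. For NAA15, a subunit of an N-terminal acetyltransferase, the same-strand model had 72 reads in shLSD1 and 131 in Blank. The model facing NAA15 had 1795 in shLSD1 and 1863 in Blank. PDCD4, an inhibitor of translation initiation, had a same-strand model with 306 reads in shLSD1 and 406 in Blank and a convergent one opposite with 933 in shLSD1 and 938 in Blank. In 20 of the 45 cases the same-strand model held more reads than the model opposite.

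The models most covered by reads were mainly those that abut a gene. The one with most reads, on chromosome 5 from 27619785 to 27621371, shared 4 bases with a pseudogene that has no symbol (ENSGALG00000027352) and had 4811 reads in shLSD1 and 6112 in Blank, a log2 ratio of -0.26 (-0.32 to -0.21). Next came the model past the end of WASF2, which drives actin branching at the cell edge. It lay on chromosome 23 from 1950724 to 1954486, was unspliced, shared 4 bases with the gene and had 4286 reads in shLSD1 and 4449 in Blank, beside 1524 in shLSD1 and 1475 in Blank for the gene. A model on chromosome 26 (4617055 to 4629379) carried a Bcl-2 family domain, the fold of apoptosis regulators, and had 3793 reads in shLSD1 and 3963 in Blank. It shared 2 bases with a gene without a symbol (ENSGALG00000003188) that had 8 reads in shLSD1 and 5 in Blank. The models past LMNB2, a nuclear lamin (2450 in shLSD1, 2934 in Blank), and SMAD3, a transducer of TGF-beta signals (1538 in shLSD1, 1781 in Blank), shared 1 and 4 bases with their genes. That of FSCN1, an actin-bundling protein, shared 264 bases and had 1999 reads in shLSD1 and 2087 in Blank.

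Other well covered models lay deep in a gene or across its start. Inside TMCO6, which encodes a membrane protein, a model of 29580 bases with a ubiquitin-conjugating enzyme domain had 2691 reads in shLSD1 and 2957 in Blank. The gene as listed had 464 in shLSD1 and 470 in Blank, and its same-strand model a further 1180 in shLSD1 and 1173 in Blank. The model across the start of LRRC16B carried a short chain dehydrogenase domain and had 1324 reads in shLSD1 and 1397 in Blank.

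In 8 models a domain was of a reverse transcriptase, an integrase or a retroviral gag or env protein, words chosen after the descriptions had been read, and 6 of these had at least 20 reads. Among the 6 were one inside CD109, a cell surface antigen, with 502 in shLSD1 and 416 in Blank (log2 ratio 0.35, 0.16 to 0.55), one inside ZNF804B, a zinc finger gene, with 196 in shLSD1 and 154 in Blank (0.43, 0.12 to 0.74), and one with an integrase domain facing a gene without a symbol, with 170 in shLSD1 and 174 in Blank (0.05, -0.26 to 0.36). The CD109 and ZNF804B models were both unspliced and both carried gag domains. An env domain was carried by the model inside NFAT5, an osmotic stress transcription factor, with 13 reads in shLSD1 and 13 in Blank. None of the 6 was 2-fold apart.

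For other models the domain fitted the name of a gene that RefSeq lists next to the partner. Of the 50 models with a domain and at least 20 reads, 39 had a partner listed in RefSeq, and 5 examples follow, chosen after the domain descriptions had been read. The comparison is one of names and assigns no gene name to a model. The model divergent from NDUFS6, a subunit of respiratory complex I, had a ribosomal protein L36 domain where RefSeq lists MRPL36, with 771 reads in shLSD1 and 794 in Blank. The one divergent from EME1, a DNA repair endonuclease, had a ribosomal L27 domain where RefSeq lists MRPL27, with 471 in shLSD1 and 485 in Blank. Beside apoAIV, an apolipoprotein, lay a model with an apolipoprotein CIII domain where RefSeq lists APOC3, with 293 in shLSD1 and 300 in Blank. Convergent with SNW1, a splicing and transcription coregulator, was a model with an RNA recognition motif where RefSeq lists SLIRP, with 435 in shLSD1 and 514 in Blank. Past the end of MAP1LC3B, an autophagosome protein, a model with a zinc knuckle lay where RefSeq lists ZCCHC14, with 935 in shLSD1 and 838 in Blank (log2 ratio 0.24, 0.10 to 0.38).

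The comparison of the libraries asked which models differed between shLSD1 and Blank. Ratios are log2 of shLSD1 over Blank on counts per library total, with 0.5 added to each count in proportion to the library, and a model was called when it was at least 2-fold apart. One model was higher in shLSD1 (1 of 158, 0.633%), against 266 of 12081 rows of the whole table (2.2%). Lower in shLSD1 were 8 (5.06%), against 220 of all rows (1.82%). The median ratio over the 158 was 0.03, with quartiles of -0.18 and 0.23 and 89 above 0 and 69 below, beside a median of -0.01 over all rows. Medians by arrangement were 0.04 in divergent, 0.02 in convergent, -0.04 in inside and 0.20 in the 12 enclosing models.

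The calls came from models with few reads. Of 54 models with 20 to 99 reads, 1 (1.85%) was higher and 7 (13.0%) were lower, beside 6.02% and 5.07% of the 3804 rows in that range. Among the 104 models with at least 100 reads, 0 were higher and 1 was lower, and their ratios ran from -1.11 to 0.90. The rows of the whole table at that depth were higher in 0.447% and lower in 0.326% of cases. In 15 of the 104 the interval lay above 0 and in 10 below. That count was not made over all rows, so it cannot be read as particular to these models.

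**Figure D3:**
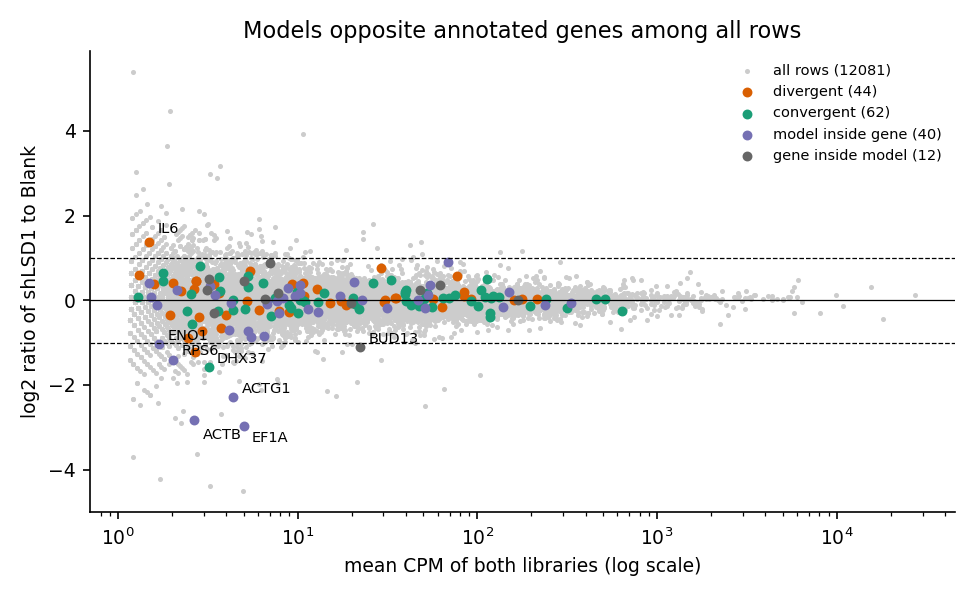
Log2 ratio of shLSD1 to Blank (vertical axis) against mean CPM of both libraries (horizontal axis, log scale), for the 158 models with at least 20 reads, coloured by arrangement, over all 12081 rows with as many reads (grey). Dashed lines mark 2-fold. The named models past the lower line are those opposite EF1A, ACTB, ACTG1, DHX37, RPS6, BUD13 and ENO1, and the one past the upper line is that opposite IL6.

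Of the 8 lower models, 5 lay inside the body of a gene, namely EF1A, ACTB, ACTG1, RPS6 and ENO1. They were 5 of the 40 models inside genes with at least 20 reads (12.5%), against 3 of the 118 others (2.54%). These shares were not matched for depth: all 5 had 20 to 99 reads, a range in which 5.07% of the rows of the whole table were lower. Together they held 44 reads in shLSD1 and 229 in Blank, a sum that only describes models picked for being lower. The model inside EF1A (ENSGALG00000015917), the factor that brings aminoacyl-tRNA to the ribosome, lay on chromosome 3 from 80915603 to 80916512 and had 9 reads in shLSD1 and 78 in Blank, a log2 ratio of -2.97 (-4.21 to -2.03). The gene as listed had 0 reads in shLSD1 and 2 in Blank, and the model carried the C-terminal domain of elongation factor Tu, which is the domain of the protein on the other strand.

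Both cytoplasmic actins had such a model. The one inside ACTB (ENSGALG00000009621, beta-actin), on chromosome 14 from 4169361 to 4171861, had 5 reads in shLSD1 and 41 in Blank, a log2 ratio of -2.84 (-4.65 to -1.61). The gene had 85815 reads in shLSD1 and 82783 in Blank, so the model stood at 0.598 FPKM in shLSD1 and 4.62 FPKM in Blank opposite one at 6148 FPKM in shLSD1 and 5591 FPKM in Blank. The model inside ACTG1 (ENSGALG00000028749, gamma-actin), on chromosome 18 from 9470659 to 9472703, had 12 reads in shLSD1 and 64 in Blank, a ratio of -2.29 (-3.36 to -1.43), with 1013 reads in shLSD1 and 882 in Blank for the gene. It carried an actin domain, and no domain was listed for the ACTB model.

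The other 2 of the 5 were shallower. The model inside RPS6, a protein of the small ribosomal subunit, on chromosome Z from 33596220 to 33597862, had 9 reads in shLSD1 and 26 in Blank (log2 ratio -1.40, -2.73 to -0.31). Inside ENO1, the glycolytic enzyme enolase, on chromosome 21 from 3215103 to 3216057, the counts were 9 in shLSD1 and 20 in Blank. Its ratio of -1.03 had an interval from -2.39 to 0.13, which includes no difference. Whether these genes have near-identical copies elsewhere in the chicken genome was not tested. Reads of such a copy, placed on either strand of these genes, could not be told apart from reads of the model itself.

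A like model that missed the line lay inside RPS3A, a further small subunit protein, with 33 reads in shLSD1 and 58 in Blank (-0.72, -1.39 to -0.09), opposite 23007 reads in shLSD1 and 23173 in Blank. Of the 19 models inside a gene of at least 10000 reads, 16 had no read, and the remaining 3 (ACTB, ENO1 and RPS3A) had 47 reads in shLSD1 and 119 in Blank. The genes opposite these 3 stood at log2 ratios of 0.13, 0.48 and 0.07, and the interval of the difference between model and gene excluded 0 in all 3. The models of ACTB and ENO1 had already been called lower, so these values are not separate from that call.

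The lower model with most reads overlapped 6 opposite genes, with BUD13, a splicing factor, wholly inside it, over 27909 bases of chromosome 24 (5079659 to 5107567). It had 116 reads in shLSD1 and 265 in Blank, a log2 ratio of -1.11 (-1.44 to -0.79), and was the only model with at least 100 reads past 2-fold. BUD13 itself had 0 reads in shLSD1 and 0 in Blank, and its same-strand model had 58 in shLSD1 and 49 in Blank. The 2 left were a model with a ubiquitin domain convergent with DHX37, an RNA helicase, with 13 reads in shLSD1 and 42 in Blank (-1.57, -2.63 to -0.68), and one on chromosome 8 (25592110 to 25597860) facing a gene without a symbol (ENSGALG00000018634), with 13 in shLSD1 and 33 in Blank (-1.23, -2.31 to -0.30). The same-strand model of that gene had 103 reads in shLSD1 and 104 in Blank.

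The 1 higher model began within IL6, the gene of the cytokine interleukin-6, and ran away from it on chromosome 2 (30991037 to 30995694). It had 18 reads in shLSD1 and 7 in Blank, a log2 ratio of 1.38 (0.12 to 2.95), and IL6 itself had 21 in shLSD1 and 20 in Blank. Model and gene shared 163 bases, and the ratio of their ratios had an interval that included 0 (1.27, -0.40 to 3.07).

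**Figure D4:**
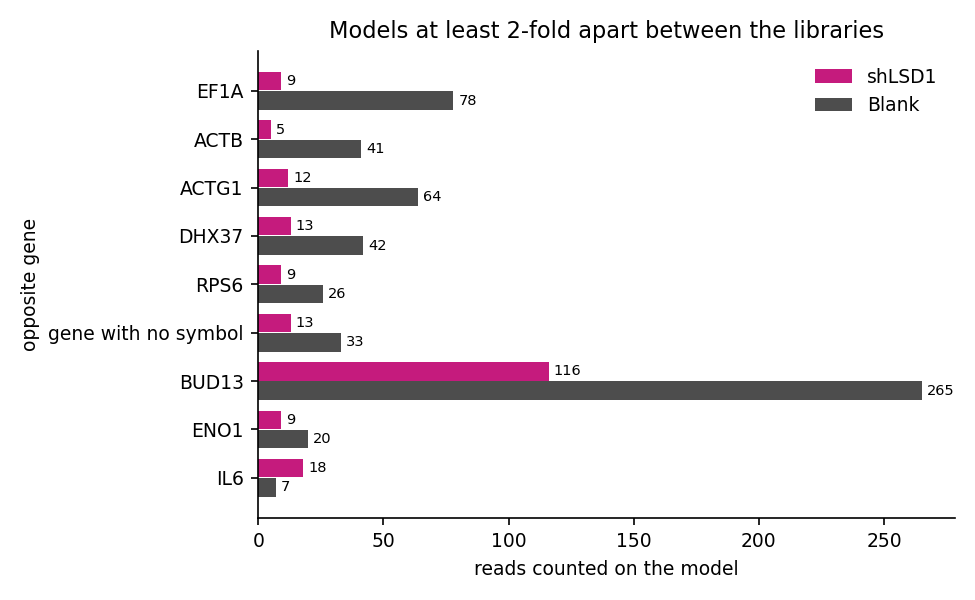
Reads on each of the 9 models at least 2-fold apart (horizontal axis), with the shLSD1 library above the Blank library, named by opposite gene (vertical axis). Blank exceeds shLSD1 in all but the IL6 model, and the bars of all but BUD13 stay below 100 reads.

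Just inside the 2-fold line stood the models of PEPCK (0.90) and METTL16 (-0.89), and just past it those of ENO1 (-1.03) and BUD13 (-1.11). PEPCK encodes phosphoenolpyruvate carboxykinase, a rate-limiting enzyme of gluconeogenesis. Its unspliced model, on chromosome 20 from 11873838 to 11876906 within the gene, had 739 reads in shLSD1 and 420 in Blank (0.72 to 1.07), where the gene had 3 in shLSD1 and 0 in Blank. This was the highest ratio among models with at least 100 reads.

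The next highest were opposite FMOD, a small matrix proteoglycan, with 75 reads in shLSD1 and 43 in Blank (0.88, 0.33 to 1.46), and Id3, an inhibitor of helix-loop-helix factors, with 301 in shLSD1 and 188 in Blank (0.76, 0.49 to 1.03). Id3 itself had 354 reads in shLSD1 and 260 in Blank, and its ratio of 0.53 (0.29 to 0.76) overlapped that of the model. Near gga-mir-6652, a chicken miRNA, the model had 756 reads in shLSD1 and 541 in Blank (0.56, 0.40 to 0.73). The model past the end of CLDN11, a tight junction claudin of Sertoli cells, had 1094 in shLSD1 and 822 in Blank (0.49, 0.36 to 0.63), and the gene 1544 in shLSD1 and 1255 in Blank (0.38, 0.27 to 0.49). Taken singly, these models and that of PEPCK were higher in shLSD1 beyond counting error, none by 2-fold. They were picked for having the highest ratios among models with at least 100 reads. Their intervals do not allow for that choice.

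At the lower end after BUD13 were the models of chTC10, a small GTPase, with 38 reads in shLSD1 and 73 in Blank (-0.85, -1.46 to -0.27), and SLC16A3, a lactate exporter, with 833 in shLSD1 and 1170 in Blank (-0.41, -0.54 to -0.28). SLC16A3 itself, which shared only 4 bases with its model, was also lower, with 1696 reads in shLSD1 and 2092 in Blank (-0.22, -0.31 to -0.13). For FAM110D (51 in shLSD1, 70 in Blank) and SYN2, a synaptic vesicle protein (74 in shLSD1, 97 in Blank), the intervals included 0.

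Gene lists bearing on the cells and on known antisense RNAs held 99 matched genes, which faced 13 of the 391 models. Of all 17108 annotated genes, 361 faced a model. Whether listed genes face models more often than other genes was not tested. Of 30 genes whose antisense RNA has a name in human, 20 were matched and 3 had a model here: WT1, HIF1A and Hoxa11. The model of Hoxa11, a homeobox gene, had no read. WT1 is a transcription factor of Sertoli cells and of the embryonic gonad. The model inside it, on chromosome 5 from 5488292 to 5489239 near the start of the gene, had 1313 reads in shLSD1 and 1213 in Blank, a log2 ratio of 0.20 (0.08 to 0.31). WT1 as listed had 0 reads in shLSD1 and 0 in Blank, and its same-strand model had 613 in shLSD1 and 568 in Blank.

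Among 16 collagen and matrix genes matched, SPARC, a collagen-binding matrix protein, had a divergent model with 93 reads in shLSD1 and 92 in Blank (0.10, -0.33 to 0.53). COL1A2, a chain of type I collagen, had one inside the gene with 34 in shLSD1 and 38 in Blank (-0.08, -0.79 to 0.63), which carried a collagen repeat domain. The models of TNC, COL6A3, AMH and KDM5B, and further models of SPARC, COL1A2 and CLDN11, had no read. KDM5B, a demethylase of lysine 4 of histone H3, was the only 1 of 13 matched genes on the list for that mark with a model opposite. The list did not hold WDR82, described below, which also faced a model. No model faced a matched gene of the Wnt, germ cell, Leydig, peritubular, endothelial or blood lists. Only 5 models opposite a listed gene had at least 20 reads, and none of these was 2-fold apart in either direction. Over all rows with as many reads, 2.2% were higher in shLSD1 and 1.82% lower. The lack of calls among 5 models therefore cannot be read as particular to them.

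Each model was also set against its own gene. In 85 pairs both had at least 20 reads, and the ratio of their shLSD1 to Blank ratios does not depend on how the libraries are scaled. Its interval excluded 0 in 22 pairs (25.9%), with the model above the gene in 9 and below it in 13, beside 29 of 133 pairs of annotated genes on opposite strands (21.8%). The median size of the difference was 0.20 on the log2 scale, against 0.29 in the annotated pairs. Pairs at least 2-fold apart numbered 8 among the models and 9 among the annotated pairs. Across the 85 pairs the ratios of model and gene had a Pearson correlation of 0.02 and a Spearman correlation of 0.15, and across the 54 pairs with at least 100 reads on both sides values of 0.28 and 0.25, with the same sign in 31. These correlations are over pairs that share both libraries and, in part, the same stretch of genome, and they are given as a description.

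**Figure D5:**
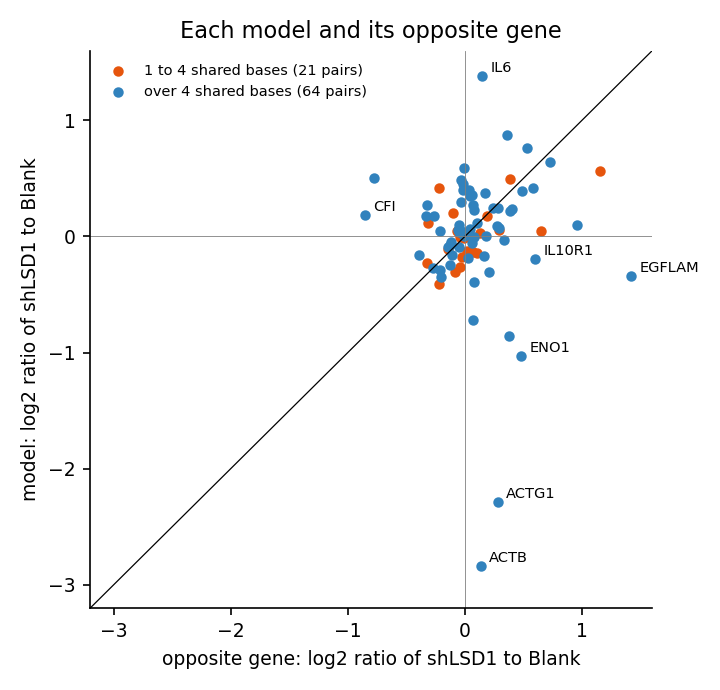
Log2 ratio of shLSD1 to Blank of each model (vertical axis) against that of its opposite gene (horizontal axis), for the 85 pairs with at least 20 reads on both sides, split by whether they share 1 to 4 bases (21) or more (64). Points on the diagonal moved alike. ACTB, ACTG1 and ENO1 lie far below it at positive ratios of the gene, and IL6 and CFI lie above it.

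In levels per length, the model stood above its gene in 44 of the 85 pairs in shLSD1 and 40 in Blank. The median of model over gene was 1.02 in shLSD1 and 0.965 in Blank, with 1.28 in shLSD1 and 1.13 in Blank for divergent pairs and 0.831 in shLSD1 and 0.844 in Blank for models inside genes. The quartiles were 0.454 and 2.14 in shLSD1 and 0.490 and 2.37 in Blank. The model was under 0.1 of its gene in 11 pairs in shLSD1 and 12 in Blank, and over 10 times its gene in 8 in shLSD1 and 9 in Blank. Levels of genes are those of the annotated row alone, so reads listed on a same-strand model of the gene are left out. TPM1, for example, had 211 reads in shLSD1 and 219 in Blank, below its opposite model at 394 in shLSD1 and 475 in Blank. Its same-strand model held 4257 in shLSD1 and 4511 in Blank.

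Of pairs with at least 100 reads on both sides, the shLSD1 to Blank ratio of the model exceeded that of its gene most at CFI, complement factor I. The convergent model had 87 reads in shLSD1 and 81 in Blank, where CFI had 38 in shLSD1 and 73 in Blank, a log2 odds ratio of 1.04 (0.29 to 1.81). SUPT7L, a subunit of a histone acetyltransferase complex, followed at 0.64 (0.11 to 1.16), FMOD stood at 0.52 (-0.20 to 1.25), and TFB1M, a mitochondrial rRNA methyltransferase, at 0.43 (0.07 to 0.79). The models of SUPT7L and TFB1M only abut their genes, with 2 and 4 shared bases. At HIF1A, the oxygen-sensitive subunit of a hypoxia transcription factor, the model had 122 reads in shLSD1 and 114 in Blank. The shared stretch of 23161 bases includes introns, since the listed exon length was 1723 bases for the model and 6527 for the gene. HIF1A had 6784 reads in shLSD1 and 9020 in Blank, and the odds ratio was 0.51 (0.13 to 0.89). The pair of its paralogue EPAS1, singled out after its values were seen, stood at 1.29 (0.41 to 2.19), from 31 reads in shLSD1 and 23 in Blank on the model and 151 in shLSD1 and 275 in Blank on the gene. The ratio of the HIF1A model itself had an interval that included 0 (0.18, -0.20 to 0.56).

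At the other end stood IL10R1, the ligand-binding chain of the interleukin-10 receptor. Its convergent model had 169 reads in shLSD1 and 205 in Blank, and the gene 175 in shLSD1 and 122 in Blank, an odds ratio of -0.80 (-1.26 to -0.34). NT5DC2, a nucleotidase domain protein, had a divergent model with 495 in shLSD1 and 590 in Blank beside 3289 in shLSD1 and 3109 in Blank for the gene (-0.33, -0.52 to -0.15). For WDR82, a subunit of a histone H3 lysine 4 methyltransferase complex, the counts were 793 in shLSD1 and 926 in Blank on the model and 1494 in shLSD1 and 1471 in Blank on the gene (-0.25, -0.42 to -0.07). That model only abuts WDR82, with 1 shared base. The intervals of SYN2 (-0.52, -1.21 to 0.17) and of DGKH, a diacylglycerol kinase (-0.36, -0.91 to 0.19), included 0. Among all 85 pairs the lowest values were those of ACTB (-3.09, -4.78 to -1.75), ACTG1 (-2.61, -3.65 to -1.70) and EGFLAM, a matrix protein (-1.82, -3.64 to -0.19).

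Of the 59 models that only abut a gene, 26 had at least 20 reads, with 27131 reads in shLSD1 and 29791 in Blank. Their median ratio was 0.01, and none was called. They were deep, with a median of 1229 reads. Of all rows with at least 100 reads, 0.447% were higher in shLSD1 and 0.326% lower. The lack of calls therefore cannot be read as particular to these models. In 7 of the 21 pairs with reads on both sides the interval of the difference excluded 0, and in none was it 2-fold.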

How the data were processed

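RNA-seq of chicken SSCs was analysed in 2 libraries, shLSD1 and Blank (1 each). For each row, the authors deposited the raw count of reads and the FPKM, for Ensembl genes and models they assembled. Aligner, assembler, counting tool and chicken build are not given in the sources used here. The submitters' processing notes name Bowtie 0.12.2 and the mouse builds mm8 and mm9. A further 4 columns of per-sample values fitted no label and were left out, as was a deposited comparison table, which holds the authors' own fold changes and p-values.

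Models were chosen by interval and strand, and the partner was the opposite gene with the longest shared stretch. Members, gene lists and tests were chosen with earlier results of these data known. Ratios used counts over library totals with a prior count of 0.5, at least 20 reads over both libraries and a 2-fold line. Intervals were Clopper-Pearson for the split of reads, conditional for odds ratios and Wilson for shares. They and the floor of 3 reads cover counting error only, at a depth of 8245826 reads in shLSD1 and 8731455 in Blank. With 1 library per group, no test across samples was possible and no p-value is given. Models were named by their opposite gene: the 8 with most reads and 2 more without a symbol, the 5 highest and 5 lowest ratios and pair differences with at least 100 reads, and those with at least 20 reads opposite a listed gene. A model that this rule names is not reported here. Models at least 2-fold apart were also named, with others where the text says so or to illustrate a count.

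RefSeq gene names (GRCg7b) were matched for the partners of 304 models and used for names and neighbours only. No sequence is printed, since no genome of the files' build was used here. The steps were tested on simulated data. edgeR 4.0.16 and DESeq2 1.42.0 in R 4.3.3 gave scaling factors only, and the rest was run with scipy 1.17.1, pandas 2.3.3, numpy 2.4.6 and matplotlib 3.10.9 under Python 3.11.15.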

Additional observations from a re-analysis of the deposited data

Results flagged for a closer look

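Outside the models described above, 27 assembled models had no strand and lay over annotated genes. They were unspliced, all 27 had reads, and together they held 729 reads in shLSD1 and 739 in Blank, above the 3 reads that a count of 0 allows. The one with most reads lay over ANO2, a calcium-activated chloride channel, on chromosome 1 from 74189879 to 74191630, with 129 reads in shLSD1 and 103 in Blank.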

How the results depend on the processing

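The counts of 1 model higher and 8 lower were the same with edgeR TMM factors, DESeq2 size factors and upper quartile scaling, with FPKM and a pseudocount of 0.1, and without the models that share 1 to 4 bases, a setting chosen after seeing the data. With no minimum of reads the counts were 8 higher and 24 lower of 391, at a minimum of 100 reads 0 and 1 of 104, and at a 1.5-fold line 8 and 15. Shares over all rows were not taken with no minimum or at the 1.5-fold line. Those counts therefore cannot be read as particular to these models. FPKM with a pseudocount of 1 gave 0 and 4, and a prior count of 5 gave 0 higher. With a shared stretch of at least 200 bases 0 were higher. Without models crossed by another assembled model, 118 were left, of which 0 were higher and 3 lower among 71 with at least 20 reads. Among genes crossed by any assembled model on the opposite strand and none on their own, the share at 0 was 8.78%, and 20.6% where the model covered at least 50% of the gene. Causes were not tested, other than that fewer models entered the stricter settings. For the 31 models chosen by the naming rule, the 124 values under 4 other settings stayed within the interval, and 1 changed sign, that of LRRC16B, near 0. The log2 balance of shLSD1 to Blank library sizes shifted by only -0.011 with edgeR TMM, 0.012 with DESeq2 and -0.026 with upper quartile scaling. Shifts this small could neither move a value out of its interval nor change a call. No paired analysis was possible because shLSD1 and Blank had 1 library each. Depth limits the calls: 194 of the 391 models had no read and 39 had 1 to 19, and a copy or a strand cannot be told apart from these counts.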
